A study of Homo sapiens with 30 samples.

Results

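The interval described here is an 80-kb stretch of human chromosome 9 (hg19, chr9:139295001-139375000) on the centromeric side of S2, a CTCF site near NOTCH1. It was set out as the home of 4 genes, ENTR1, PMPCA, INPP5E and SEC16A, which in RefSeq's GRCh38 gene order follow one another between SNAPC4 and NOTCH1. Its members are all DpnII fragment ends at these positions, chosen by position alone, with no read count entering the choice. They number 287 of the 382657 chromosome 9 ends listed for the promoter viewpoint, 314 of 429740 for the S2 viewpoint and 315 of 428705 for the S4 viewpoint. Of these, 184, 97 and 98 ends were marked non-blind, and the other 103, 217 and 217 were marked blind, the 4C term for a fragment that lacks a site of the second enzyme. Positions are not set against exons or introns, since the gene annotation used here is of another build.

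The counts come from 4C-seq of K562 cells, a line grown from a human chronic myeloid leukaemia. In 4C-seq, cross-linked chromatin is cut and ligated, and the read count at a fragment end records how often that end was joined to 1 chosen fragment, the viewpoint. The viewpoints were the NOTCH1 promoter, S2 and S4, and each was profiled in the S2 mutant, the S4 mutant, the S5 mutant, the S4-S5 mutant (both sites mutated) and unedited WT cells, with 2 libraries for each of these 15 groups. All groups are K562 cells grown in the same medium, and the series' design text calls the mutated sites CTCF-depleted. The sequence changes at the sites, the position of S5, and whether a mutant line is 1 clone or a mixed population are details that the labels do not state.

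CTCF is a DNA-binding protein at which cohesin-driven loop extrusion often stops, so that pairs of CTCF sites mark loop anchors and domain borders, and loss of a site is known to let contacts spread past it. The genes of the interval have unrelated cellular roles. SEC16A is a scaffold of endoplasmic reticulum exit sites, where secretory cargo is packed into vesicles. INPP5E is a phosphoinositide 5-phosphatase of the primary cilium that is mutated in Joubert syndrome. PMPCA is the alpha subunit of the mitochondrial processing peptidase, which removes targeting sequences from imported proteins, and ENTR1 takes part in endosomal trafficking. NOTCH1, on the other side of S2, encodes a Notch receptor. 4C-seq measures contacts and says nothing of the transcription of these genes.

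The start regions of 3 of the genes are shown because their sites limit what 4C could read at those starts. A DpnII end exists only at a GATC, and a window without one is read only through the ends of the fragment that contains it. Each window is RefSeq's, on GRCh38.p14, from 250 bases before to 50 bases after the gene's start, on the gene's strand. These positions are in another build than the read counts and cannot be set against them. Whether each window lies inside the interval was therefore not established. Capitals mark GATC (DpnII), CATG (NlaIII) and GTAC (CviQI), each of which reads the same on both strands. No window holds more than 1 of these sites, so none overlap.
PMPCA, chr9:136410408-136410707, plus strand: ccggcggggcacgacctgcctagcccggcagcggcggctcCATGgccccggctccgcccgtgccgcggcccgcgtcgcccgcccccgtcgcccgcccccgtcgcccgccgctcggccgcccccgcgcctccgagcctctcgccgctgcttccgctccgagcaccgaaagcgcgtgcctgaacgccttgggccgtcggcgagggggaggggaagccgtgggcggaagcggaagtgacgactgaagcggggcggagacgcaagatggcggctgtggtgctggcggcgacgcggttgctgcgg
INPP5E, chr9:136439796-136440095, minus strand: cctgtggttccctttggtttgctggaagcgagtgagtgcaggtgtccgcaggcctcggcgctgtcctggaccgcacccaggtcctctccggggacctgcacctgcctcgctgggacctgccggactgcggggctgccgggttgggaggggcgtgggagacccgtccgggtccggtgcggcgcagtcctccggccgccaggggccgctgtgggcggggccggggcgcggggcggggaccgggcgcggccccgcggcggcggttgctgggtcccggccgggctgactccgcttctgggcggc
SEC16A, 1 of its 3 windows, chr9:136483734-136484033, minus strand: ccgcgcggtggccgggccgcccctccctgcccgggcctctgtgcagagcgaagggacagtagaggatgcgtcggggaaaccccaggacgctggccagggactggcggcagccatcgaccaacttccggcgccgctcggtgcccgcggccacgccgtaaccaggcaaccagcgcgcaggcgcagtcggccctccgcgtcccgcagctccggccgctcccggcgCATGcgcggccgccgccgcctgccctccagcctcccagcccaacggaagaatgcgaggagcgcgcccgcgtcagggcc

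All 4 gene symbols matched RefSeq's promoter table, with 6 windows in all. None of the 6 windows held a GATC, which 41.7% of all 35116 promoter windows of that table held. CATG was in the windows of ENTR1 and PMPCA and in the printed SEC16A window, and in 54.9% of all windows. GTAC was in none of the 6, and in 29.8% of all windows. ENTR1 and PMPCA are divergent neighbours, and their windows shared 143 bases. The G and C content of the 6 windows was 60.7 to 78.7%.

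The mutant libraries held 3500663 to 8008761 chromosome 9 reads and the WT libraries 1437870 to 2326487. Near-cis reads, meaning those within 500 kb of the viewpoint once the 5 kb on either side of it are masked, numbered 64583 to 2691302 in mutant libraries and 212633 to 1113164 in WT libraries. The chromosome 9 totals include the masked reads, so a larger total did not always mean more near-cis reads. At the promoter, mutant libraries had 4528931 to 6260106 chromosome 9 reads and 64583 to 616261 near-cis reads. WT libraries there had 1437870 to 2314930 and 212633 to 350347. Of the reads outside the mask, 81.6 to 89.9% were near-cis in mutant libraries and 66.7 to 73.4% in WT libraries, and 33.7 to 52.6% of near-cis ends had a read in mutant libraries, against 54.1 to 57.7% in WT. WT libraries thus stood apart from all 24 mutant ones on both measures. The part of this difference in the contrasts with WT was not tested, so the interval's total share is given below over near-cis reads and over all chromosome 9 reads outside the mask. Shares of bins, single ends, the neighbouring 80 kb and the mirror interval are over near-cis reads alone. Per the labels, each condition has independent libraries, but nothing says that they came from separate cultures. Over the interval's ends, log2 reads correlated at r = 0.921 to 0.996 between the libraries of a genotype and at 0.163 to 0.681 between genotypes (across ends of 1 region, a description only). The p-values below are therefore set by the spread of these library pairs, which may be technical.

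From the NOTCH1 promoter, which lies 68.3 to 148.3 kb away on the far side of S2, the interval took a smaller share of contacts in every mutant than in WT. It held 6.06 and 5.88% of near-cis reads in the 2 S2 mutant libraries, 6.12 and 6.07% in those of the S4 mutant, 5.51 and 5.50% in S5 mutant cells, 5.22 and 5.08% in the S4-S5 mutant, and 8.33 and 8.32% in WT. No mutant library overlapped WT, and the S4-S5 mutant was the lowest of the 5 genotypes. As a share of all chromosome 9 reads outside the mask the order against WT was the same but the distance smaller, with 5.01 ± 0.103% in the S2 mutant, 5.06 ± 0.0248% in the S4 mutant, 4.71 ± 0.0027% in S5 mutant cells, 4.26 ± 0.0701% in the S4-S5 mutant and 5.55 ± 0.0114% in WT (SD, n = 2 each).

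For tests, reads were summed in 80-kb tiles, of which the interval is 1, and fitted with edgeR's quasi-likelihood F test over the 14 tiles that passed a mean of 10 reads. At the promoter the interval fell by 0.48 ± 0.03 on the log2 scale in the S2 mutant (standard error, Benjamini-Hochberg adjusted p = 1.94e-09), by 0.45 ± 0.02 in the S4 mutant (adjusted p = 4.75e-12), by 0.60 ± 0.02 in S5 mutant cells (adjusted p = 3.1e-12) and by 0.69 ± 0.01 in the S4-S5 mutant (adjusted p = 4.5e-16). Nearly every tile passed this test. In either direction 92.9% of the 14 tiles were called in the S2 mutant and 100.0% in each of the S4, S5 and S4-S5 mutants, so a call says little about the interval, and the size is what can be read. Over all 14 tiles the median change was -0.35 in the S2 mutant, -0.58 in the S4 mutant, -0.63 in S5 mutant cells and -0.74 in the S4-S5 mutant. The interval's change stood 6th from the lowest in the S2 mutant, 9th in the S4 and S5 mutants and 8th in the S4-S5 mutant, in the middle of the tiles each time. With chromosome 9 as the library size the 4 falls were -0.15, -0.13, -0.24 and -0.38, and with DESeq2's size factors they were -0.05, -0.04, -0.03 and -0.08. Set against mutants that keep the site in question in place of WT, the S2 mutant was higher by 0.10 and the S4 mutant by 0.09.

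From S2 itself, 10.9 to 90.9 kb away, the interval was a larger share of contacts in the S2 and S4 mutants than in WT, and a smaller one in the S5 and S4-S5 mutants. The share of near-cis reads was 14.6 and 14.5% in the S2 mutant, 16.4 and 16.1% in the S4 mutant, 12.3 and 11.8% in S5 mutant cells, 11.9 and 11.4% in the S4-S5 mutant, and 13.6 and 13.6% in WT. The libraries of the S5 and S4-S5 mutants overlapped each other, and none overlapped WT. Over all chromosome 9 reads all 4 mutants lay above WT, with 11.9 ± 0.000614% in the S2 mutant, 14.2 ± 0.136% in the S4 mutant, 10.6 ± 0.271% in S5 mutant cells, 10.1 ± 0.276% in the S4-S5 mutant and 9.51 ± 0.00974% in WT (SD, n = 2 each). The direction of the S5 and S4-S5 mutants against WT thus depended on the scale, and of the 4 mutants only the S4 mutant kept its direction on each of the 5 scalings tried.

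In the fit over 14 tiles the interval rose from S2 by log2 0.10 ± 0.02 in the S2 mutant (edgeR adjusted p = 8.49e-05) and by 0.26 ± 0.02 in the S4 mutant (adjusted p = 3.98e-12). It fell by 0.17 ± 0.02 in S5 mutant cells (adjusted p = 1.41e-08) and by 0.22 ± 0.02 in the S4-S5 mutant (adjusted p = 9.32e-11). Of all tiles 92.9% were called in the S2 mutant, 85.7% in the S4 mutant, 92.9% in S5 mutant cells and 92.9% in the S4-S5 mutant. The median tile changed by -0.36, -0.28, -0.37 and -0.50 in the same 4 mutants, so that the interval lay above it in each. The rise in the S2 mutant became -0.07 on non-blind ends alone (adjusted p = 0.0217) and -0.13 with the centromeric reads as the library size.

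From S4, at 148.7 to 228.7 kb the most distant viewpoint, the interval had a larger mean share of near-cis reads than from the promoter or S2 in each of the 5 genotypes. These shares are of different windows and lists of fragment ends, so they do not show which viewpoint contacts the interval most. The genotypes parted as they did from S2. The interval held 18.3 and 18.4% of near-cis reads in the S2 mutant, 17.4 and 17.6% in the S4 mutant, 13.2 and 13.0% in S5 mutant cells, 13.3 and 13.7% in the S4-S5 mutant, and 15.4 and 15.3% in WT. The S2 and S4 mutants lay above WT and the S5 and S4-S5 mutants below it, with no overlap with WT. Over all chromosome 9 reads the means were 16.1 ± 0.071% in the S2 mutant, 15.5 ± 0.075% in the S4 mutant, 11.7 ± 0.0842% in S5 mutant cells, 11.9 ± 0.202% in the S4-S5 mutant and 11.3 ± 0.0954% in WT (SD, n = 2 each), which again put all mutants above WT.

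The fit gave log2 0.25 ± 0.01 in the S2 mutant (edgeR adjusted p = 4.62e-30) and 0.19 ± 0.01 in the S4 mutant (adjusted p = 2.62e-23), and falls of 0.23 ± 0.01 in S5 mutant cells (adjusted p = 3.17e-28) and 0.19 ± 0.01 in the S4-S5 mutant (adjusted p = 3.85e-23). Of the 14 tiles 100.0% were called in the S2 mutant, 100.0% in the S4 mutant, 92.9% in S5 mutant cells and 92.9% in the S4-S5 mutant. The median tile changed by -0.14, -0.20, -0.28 and -0.59 in these mutants. On the chromosome 9 scale the changes were 0.52, 0.46, 0.06 and 0.08, so the S2 and S4 mutants kept their direction and the S5 and S4-S5 mutants did not. On non-blind ends alone the S4 mutant's rise was no longer called (-0.03, adjusted p = 0.0964), while that of the S2 mutant was 0.62.

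The interval's share differed among the 5 genotypes at each viewpoint. An exact permutation test of the F statistic among genotypes, run over all 945 partings of 10 libraries into 5 pairs, upper-tailed and adjusted over 15 values, gave p = 0.00227 at the promoter, 0.00353 at S2 and 0.00227 from S4 for the near-cis share, where 0.00106 is the smallest raw p the design allows. For the chromosome 9 share the adjusted exact p-values were 0.00397, 0.00227 and 0.00353.

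**Figure D1:**
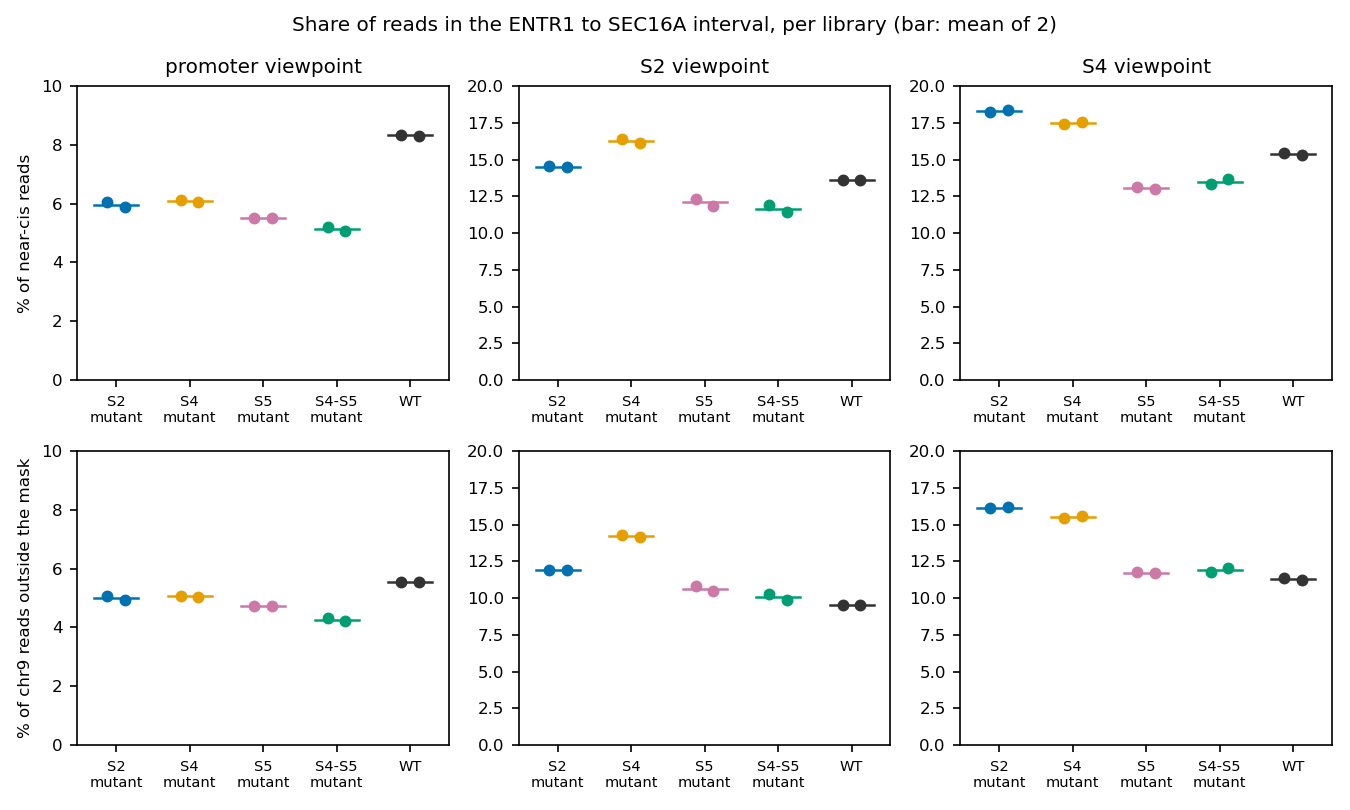
Share of reads that fell in the interval for each of the 30 libraries, by viewpoint and genotype, as % of near-cis reads (top) and % of chromosome 9 reads outside the mask (bottom); points are libraries and bars their mean. From S2 and S4, the S2 and S4 mutants lie above WT in both rows, while the S5 and S4-S5 mutants lie below WT in the top row and above it in the bottom row.

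The lines with a mutated S5 were also set against the S2 and S4 mutants. This contrast, chosen after the data were seen, compares the 4 libraries of the S5 and S4-S5 mutants with the 4 of the S2 and S4 mutants at each viewpoint. The interval fell in the S5-mutated lines by 0.18 ± 0.02 on the log2 scale at the promoter (edgeR adjusted p = 1.81e-07), by 0.37 ± 0.01 at S2 (adjusted p = 5.7e-19) and by 0.43 ± 0.01 at S4 (adjusted p = 8.31e-55). On the chromosome 9 scale the values were close to these, at -0.17, -0.33 and -0.42, and against the S4 mutant alone they were -0.20, -0.45 and -0.40. The call covered 85.7% of the 14 tiles at the promoter, 100.0% at S2 and 100.0% from S4, and the median tile changed by -0.13, 0.02 and 0.12. At the promoter the difference was -0.01 with DESeq2's size factors (adjusted p = 0.438), and at S2 it turned to 0.16 when only reads on the centromeric side of the viewpoint set the library size.

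Because S4 and S5 were mutated alone and together, the fit also gives the difference between the double mutant and the sum of the single ones. In log2 this S4 by S5 interaction was 0.35 ± 0.03 at the promoter (edgeR adjusted p = 6.07e-08), -0.31 ± 0.03 at S2 (adjusted p = 1.11e-10) and -0.14 ± 0.02 at S4 (adjusted p = 2.57e-11). It was called for 100.0% of the tiles at the promoter, 78.6% at S2 and 100.0% from S4, with medians of 0.41, 0.14 and 0.13. WT and 3 of the 4 mutants enter the interaction, and at the promoter it was -0.01 on the chromosome 9 scale (adjusted p = 0.335).

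**Figure D2:**
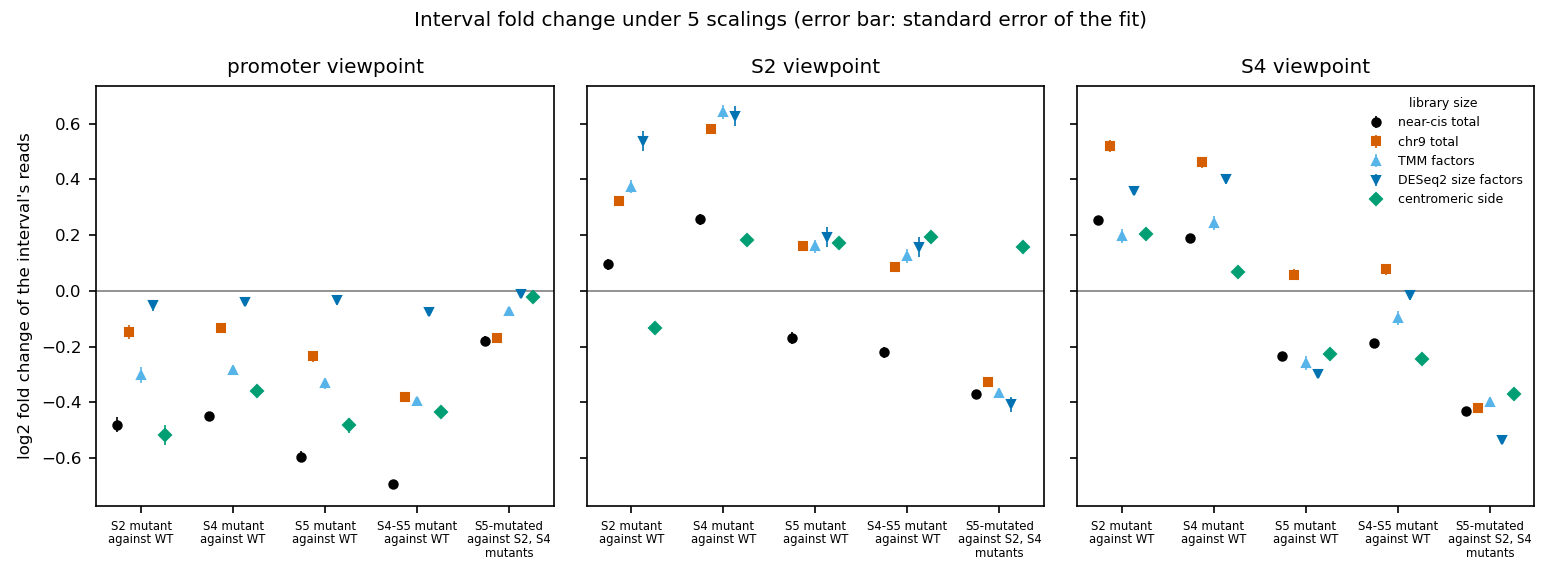
Log2 fold change of the interval's reads from the tile fit for each mutant against WT and for the S5-mutated lines against the S2 and S4 mutants, under 5 choices of library size, with standard errors as bars. Changes against WT and the S5-mutated contrast both shift with the scale by more than their error. At S4 the S5-mutated contrast keeps its sign, between -0.54 and -0.37. At S2 it turns to 0.16 with the centromeric side, and at the promoter it is -0.01 with DESeq2.

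A ratio to a nearby region needs no library size. The 80 kb next to the interval on its centromeric side (chr9:139215001-139295000) lies farther from all 3 viewpoints and held fewer reads than the interval in all 30 libraries. From S4 the log2 ratio of interval to neighbour was 0.69 and 0.72 in the S2 mutant, 0.79 and 0.82 in the S4 mutant, 1.53 and 1.51 in S5 mutant cells, 1.48 ± 0.03 in the S4-S5 mutant (SD, n = 2), and 1.12 and 1.09 in WT. The S5-mutated lines thus lay above WT and the other mutants below it, the reverse of the order of the interval's near-cis share. The neighbour's own share was 11.2 ± 0.102% in the S2 mutant, 10.02 ± 0.0884% in the S4 mutant, 4.56 ± 0.00314% in S5 mutant cells, 4.82 ± 0.00471% in the S4-S5 mutant and 7.14 ± 0.0398% in WT (SD, n = 2 each).

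From S2 the ratio to the neighbour was 0.80 and 0.78 in the S2 mutant, 1.78 and 1.76 in the S4 mutant, 1.64 and 1.61 in S5 mutant cells, 1.98 and 1.87 in the S4-S5 mutant, and 1.04 and 1.04 in WT. The S2 mutant alone lay below WT there, with its neighbour at 8.41 ± 0.059% of near-cis reads against 6.62 ± 0.00537% in WT (SD, n = 2 each). At the promoter the ratio was 0.58 ± 0.03 in the S2 mutant, 0.99 ± 0.02 in the S4 mutant, 1.08 ± 0.02 in S5 mutant cells, 0.98 ± 0.02 in the S4-S5 mutant and 1.06 ± 0.01 in WT (log2, SD, n = 2 each). Only the S2 mutant stood well apart at the promoter, and the S5 mutant's libraries overlapped those of WT. The ratio differed among genotypes at all 3 viewpoints (exact permutation, adjusted p = 0.00635 at the promoter, 0.00227 at S2 and 0.00227 from S4). Without the S2 mutant the promoter's exact p was 0.0571 before adjustment, so the call there was lost.

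**Figure D3:**
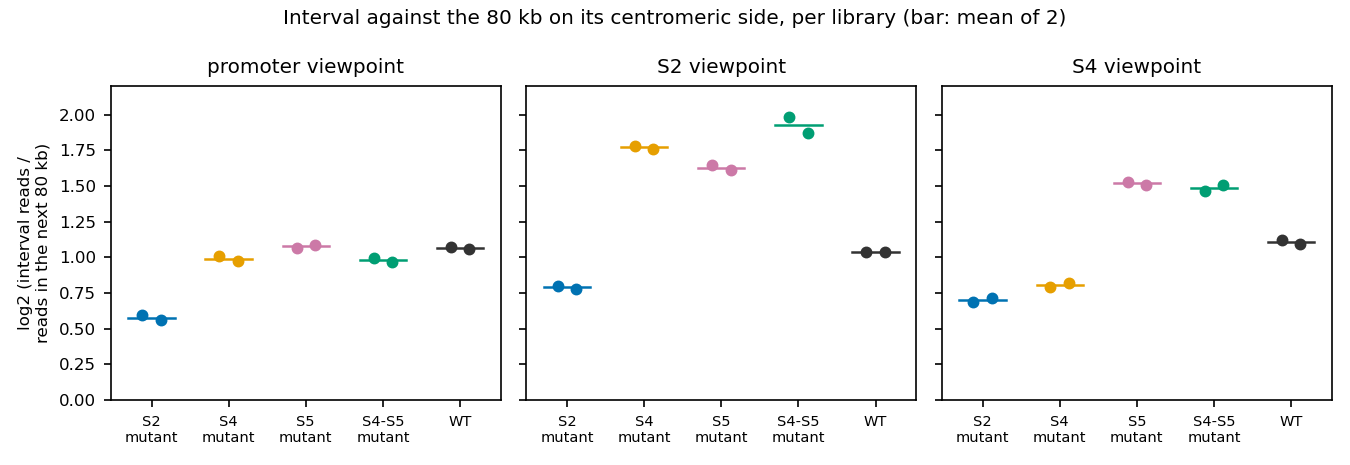
Log2 ratio of reads in the interval to reads in the adjacent 80 kb on its centromeric side, for each library by viewpoint and genotype, with the mean as a bar. At S4 the S5 and S4-S5 mutants sit at 1.46 to 1.53, above WT at 1.09 to 1.12, and the S2 and S4 mutants sit below WT.

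A second comparison is with the mirror interval, an equally long stretch at the same distance on the telomeric side of the viewpoint. The mirror is matched for distance only, and a difference in the ratio can come from either stretch. From the promoter the mirror lies between 139511536 and 139591535, around S4, which is mutated in the S4 and S4-S5 mutants. It drew more contacts than the interval in every library. The log2 ratio of interval to mirror was -0.72 and -0.80 in the S2 mutant, -0.82 and -0.86 in the S4 mutant, -1.37 and -1.36 in S5 mutant cells, -1.40 and -1.44 in the S4-S5 mutant, and -0.74 and -0.75 in WT. Both S5-mutated lines were far below the rest, and the S2 mutant's libraries lay on either side of WT. From S2 the mirror (139396744 to 139476743) contains the NOTCH1 promoter viewpoint, and the log2 ratio was -1.19 ± 0.01 in the S2 mutant, -0.93 ± 0.03 in the S4 mutant, -1.48 ± 0.06 in S5 mutant cells, -1.44 ± 0.07 in the S4-S5 mutant and -0.999 and -1.001 in the WT libraries (SD, n = 2 each). From S4 the mirror (139672492 to 139752491) was almost empty, at 0.0351 to 1.01% of near-cis reads in mutant libraries and 1.55 to 1.60% in WT. The log2 ratio there was 3.27 to 9.03, highest in the 2 S2 mutant libraries, which had the smallest mirror shares. Genotypes differed in this ratio at each viewpoint (exact permutation, adjusted p = 0.00397, 0.00488 and 0.00227).

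Within the interval, contacts were spread over all of its 8 bins of 10 kb, numbered here from the centromeric end, and from the promoter and S2 they were denser in the bin nearest the viewpoint than in the farthest one. In WT the bin with the highest mean was the 8th at the promoter (139365001 to 139375000), the 7th at S2 (139355001 to 139365000) and the 3rd at S4 (139315001 to 139325000). At S4 the 3rd, 7th and 8th bins had nearly the same WT mean, at 2.729, 2.726 and 2.718%, and their order differed between the 2 libraries. In the bin from 139365001, the end next to S2, the promoter's share was 3.08 and 3.01% in the S2 mutant, 1.18 and 1.16% in the S4 mutant, 1.07 and 1.11% in S5 mutant cells, 1.27 and 1.21% in the S4-S5 mutant, and 1.48 and 1.40% in WT. The S2 mutant was far above all others in this bin, with a log2 change of 1.09 ± 0.04 against WT, and the other mutants were below WT. Of the bin's 34 ends, 24 and 25 had a read in the S2 mutant, against 29 and 30 in WT. The S2 mutant's leading end (139369569) alone held 1.03 and 0.979% of near-cis reads. On the chromosome 9 scale the S4 and S4-S5 mutants were above WT there, by 0.023 and 0.098, and with DESeq2's size factors all 4 mutants were above it. The S5 mutant's call was lost on the chromosome 9 scale (-0.034, edgeR adjusted p = 0.366), and that of the S4-S5 mutant with a mask of 20 kb (-0.003, adjusted p = 0.943).

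In the S2 mutant 1 of the 8 bins was higher from the promoter and 7 were lower at an edgeR adjusted p under 0.05, where 28.1% of all 96 bins tested were higher and 65.6% lower. On the chromosome 9 scale 2 were higher and 6 lower. The median bin of the interval changed by -1.41, against -0.79 over the 96 bins. The largest fall was in the bin from 139295001, at 0.0418 and 0.0392% in the S2 mutant against 0.909 and 0.933% in WT, a log2 change of -4.51 ± 0.11. In that bin 11 and 12 of 32 ends had a read in the S2 mutant, against 25 and 25 in WT.

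The other mutants changed less steeply along the interval when seen from the promoter. In the S4 mutant 0 bins were higher and 8 lower (20.8 and 64.6% of all bins), with a range of -0.91 to -0.18. In the S5 mutant 1 was higher and 6 lower (26.0 and 65.6%), and the bin from 139335001 fell most, to 0.350 and 0.352% against 1.09 and 1.12% in WT. The single rise, 0.095 ± 0.03 in the bin from 139355001, was no longer called without replicate 1 of the S5 mutant (0.083) or without replicate 2 of WT (0.069). In the S4-S5 mutant 0 were higher and 8 lower (20.8 and 71.9%), with the largest fall, -1.61 ± 0.04, in the bin from 139325001. The median interval bin was -0.47 in the S4 mutant, -0.60 in S5 mutant cells and -0.73 in the S4-S5 mutant, while all 96 bins had medians of -0.50, -0.69 and -0.45.

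From S2, the S2 mutant gained contacts in the near part of the interval and lost them in the far part. In the bin from 139345001 its share was 4.13 and 4.07% against 2.32 and 2.32% in WT, a rise of 0.83 ± 0.03, while the bin from 139325001 held 0.0233 and 0.0246% against 1.40 and 1.38% in WT, a log2 change of -5.86 ± 0.06. In all, 3 bins were higher and 4 lower in the S2 mutant (28.1 and 60.4% of all bins). In the S4 mutant 5 were higher and 1 lower (30.2 and 54.2%), led by the bin from 139335001 at 2.05 and 2.01% against 1.28 and 1.33% in WT. In the S5 mutant 2 were higher and 6 lower (27.1 and 56.2%), and in the S4-S5 mutant 1 was higher and 5 lower (19.8 and 52.1%). The bin nearest S2, from 139365001, was higher than in WT in all 4 mutants, with log2 changes of 0.66 (S2 mutant), 0.64 (S4 mutant), 0.21 (S5 mutant) and 0.32 (S4-S5 mutant). In the S4-S5 mutant that rise turned to -0.35 against the S2 mutant, whose own rise in this bin was larger. With a mask of 20 kb the value was -0.16, but the bin begins 10.9 kb from S2 and that mask removes most of it. The masked value is thus of the bin's far edge alone and says nothing about the rise of the whole bin.

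From S4, 5 bins were higher and 3 lower in the S2 mutant (31.2 and 61.5% of all bins), and 5 higher and 2 lower in the S4 mutant (31.2 and 60.4%). In the S5 mutant 0 were higher and 4 lower (26.0 and 62.5%), but the counts were 4 higher and 4 lower on the chromosome 9 scale and with TMM factors, and 4 and 3 with DESeq2. In the S4-S5 mutant 2 were higher and 6 lower (25.0 and 69.8%). The bin from 139315001, with the highest WT mean, was lower in every mutant, at 1.98 and 2.08% in the S2 mutant, 2.32 and 2.34% in the S4 mutant, 1.71 and 1.68% in S5 mutant cells, 1.56 and 1.66% in the S4-S5 mutant, and 2.71 and 2.75% in WT. With DESeq2's size factors the S2 and S4 mutants were above WT in this bin, by 0.58 and 0.13, and on the chromosome 9 scale the S4 mutant was, by 0.044. The S2 mutant's bin from 139295001 rose by 1.08 ± 0.04, to 1.51 and 1.55% against 0.734 and 0.713% in WT, and its neighbour from 139305001 fell by 1.58 ± 0.05. Of the 33 ends in the bin that rose, 16 to 17 had a read in the S2 mutant, against 29 to 30 in WT.

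In the S5-mutated lines, against the S2 and S4 mutants, 3 bins were higher and 3 lower at the promoter (56.2 and 36.5% of all bins), 3 higher and 5 lower at S2 (53.1 and 39.6%), and 2 higher and 6 lower at S4 (59.4 and 38.5%). At S4 the interval's median bin was -0.54, against 0.48 over all bins. At S2 the medians were -0.27 and 0.35, and at the promoter 0.07 and 0.20. Against the S4 mutant alone 1 bin was higher and 6 were lower at the promoter, and 1 higher and 7 lower at both S2 and S4. The interval's median bin was then -0.29, -0.59 and -0.46 at these viewpoints, against -0.19, -0.12 and -0.01 over all bins. Among all bins called against WT, 22.5 to 35.8% were higher on the near-cis scale over the 3 viewpoints and 4 mutants, 37.6 to 51.2% on the chromosome 9 scale, 39.3 to 59.8% with TMM factors and 40.0 to 57.8% with DESeq2. The chromosome 9 scale moved the median of all bins against WT by 0.23 to 0.36, so that a change in a single bin is relative to that shift.

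**Figure D4:**
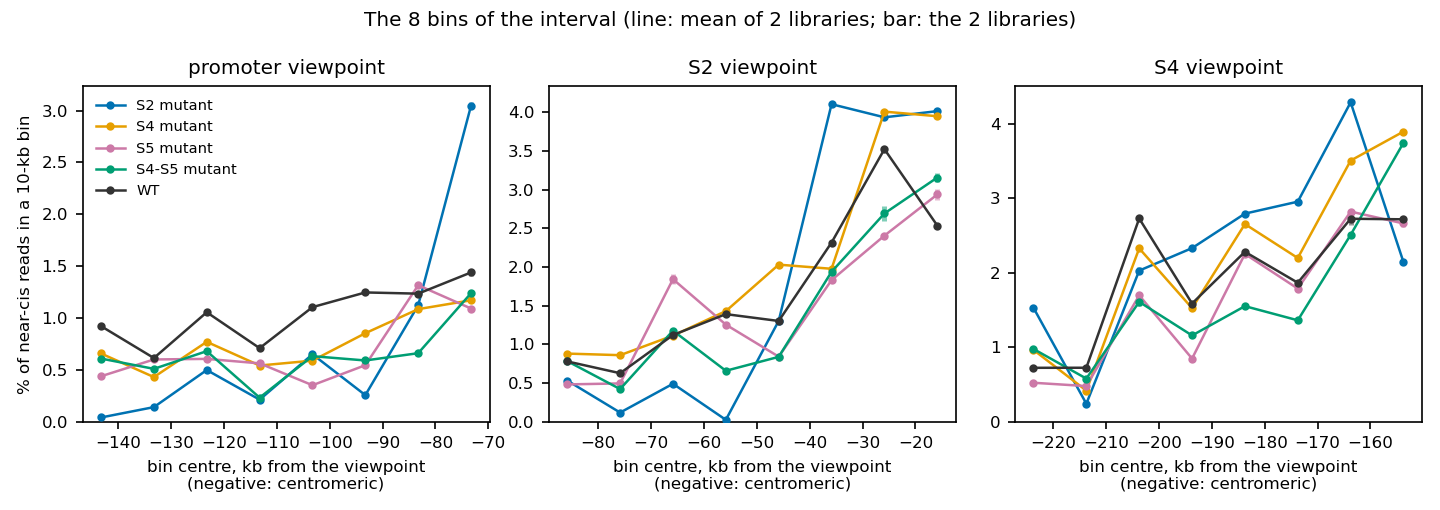
Share of near-cis reads in each of the 8 bins of the interval against the distance of the bin's centre from the viewpoint, by genotype; lines join the means of 2 libraries and bars span the libraries. The S2 mutant has the highest value nearest the promoter (3.08 and 3.01%) and the lowest at the far end from the promoter.

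Single fragment ends carried the bins unevenly, and the ends that led in one genotype were often near 0 in another. The ends named in this and the next paragraph were picked for their high share in a genotype. A lower value in other genotypes follows in part from that choice, so these values are a description only. At the promoter 46 of 287 ends had a read in all 10 libraries, 260 in at least 1 and 27 in none. The counts were 157, 284 and 30 of 314 at S2, and 165, 291 and 24 of 315 at S4. From the promoter, the leading WT end (139316356) had 4 and 3 reads in the S2 mutant, 222 and 248 in the S4 mutant, 257 and 291 in S5 mutant cells, 0 and 10 in the S4-S5 mutant, and 564 and 982 in WT. The leading end of the S2 mutant (139369569) had 665 and 674 reads there, which is 1.03 and 0.979% of near-cis reads, against 17 and 14 reads (0.00799 and 0.004%) in WT.

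From S2, the leading end of the S4 mutant (139363369) took 0.721 and 0.695% of near-cis reads in that mutant against 0.119 and 0.107% in WT, and the leading end of the S2 mutant (139363544) took 1.27 and 1.27% against 0.0293 and 0.019% in WT. The leading end of the S5 mutant (139373867), the closest of these to S2, took 0.623 and 0.607% there, and it was above WT, at 0.0465 and 0.0457%, in all 4 mutants. From S4, the leading end of the S2 mutant (139338186) took 2.09 and 2.10% against 0.106 and 0.118% in WT, and the leading WT end (139367168) took 0.0137 and 0.0146% in the S2 mutant against 0.586 and 0.647% in WT.

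How many ends carry the reads was summarised by the effective number of ends, the inverse of the summed squared shares, which equals the count of ends if all are alike. It was 14.8 and 14.8 in the S2 mutant at the promoter, 22.8 and 22.8 at S2 and 27.5 and 27.8 at S4, and 57.6 to 103 in all other libraries, WT included. In the S2 mutant the 10 leading ends of the interval held 68.2 and 69.8% of its reads at the promoter, against 22.9 and 22.9% in WT. The S2 mutant's promoter libraries also had the fewest interval reads, 3912 and 4045, against 9682 to 31314 in the other 8 libraries of that viewpoint. The S2 mutant's values thus rest on fewer ends than those of any other genotype, and the part of this in its changes was not tested.

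An end-based count removes the weight of single ends. The share of the interval's ends with a read was 44.4 ± 2.22% in the S2 mutant, 68.6 ± 0.986% in the S4 mutant, 54.7 ± 0.493% in S5 mutant cells, 72.3 ± 0.739% in the S4-S5 mutant and 72.6 ± 0.246% in WT at the promoter (SD, n = 2 each). At S2 it was 61.5 to 72.9% in mutant libraries and 84.7 and 86.0% in WT, and at S4 the means were 67.6 to 78.4% in the mutants and 88.3% in WT. Genotypes differed in it at each viewpoint (exact permutation, adjusted p = 0.00397, 0.00567 and 0.00227). The share of ends with a read also depends on depth, and libraries were not brought to equal depth. At the promoter near-cis reads ran from 64583 to 616261 per library, with the fewest in the S2 mutant. The part of depth in these differences was not tested. Over all near-cis ends the share with a read was 33.7 to 52.6% in mutant and 54.1 to 55.2% in WT libraries at the promoter. It was 39.0 to 48.0% and 57.2 to 57.7% at S2, and 41.0 to 48.3% and 57.5 to 57.6% at S4. A lower share in mutants than in WT was thus not particular to the interval. When ends with a read, in place of reads, entered the edgeR fit with their near-cis total as the library size, 0 of the interval's bins were called in any contrast with WT, with 0 at an unadjusted p under 0.05, and the interval's log2 change lay between -0.03 and 0.15. Over the whole near-cis window this count also called 0 of 57 bins at the promoter, 0 of 65 at S2 and 0 of 63 at S4, with 0 to 8 at an unadjusted p under 0.05. Since this fit called no bin anywhere, it says nothing about the interval.

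**Figure D5:**
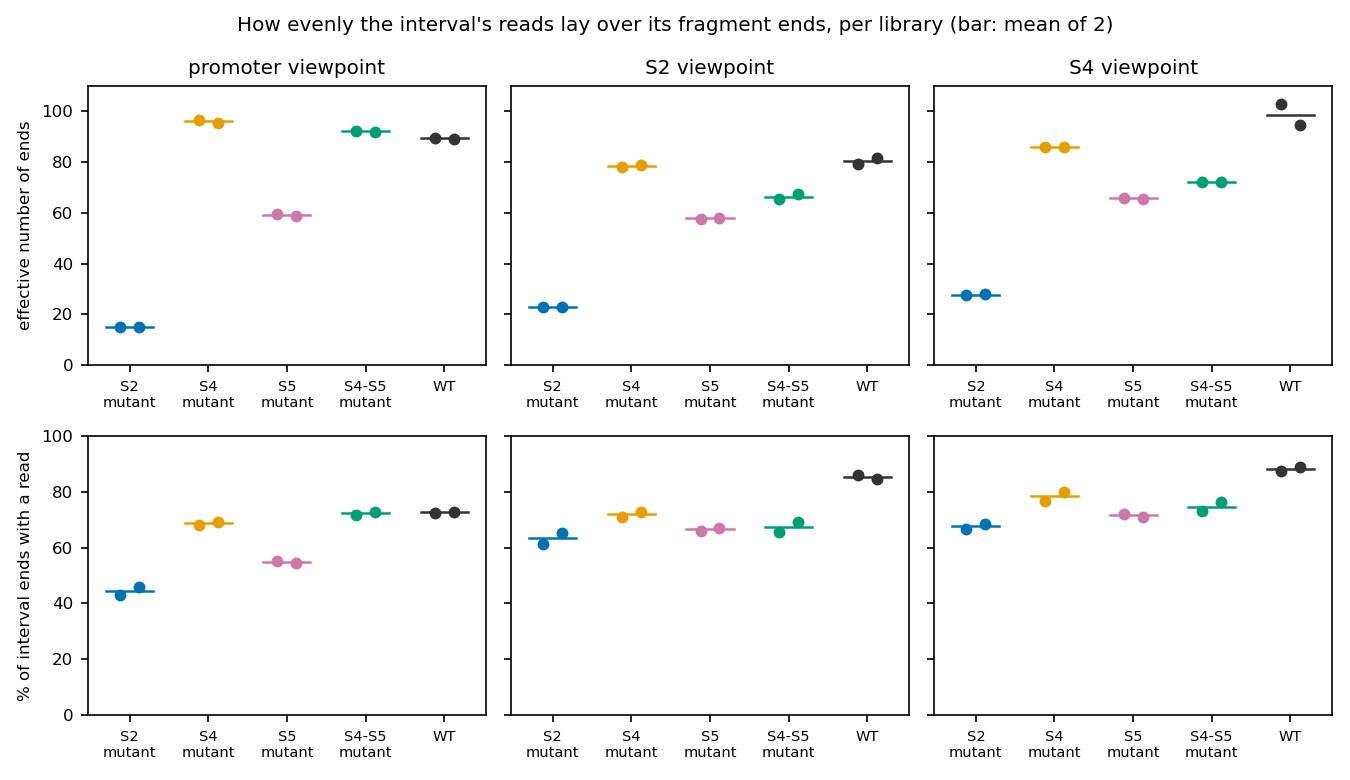
Effective number of fragment ends carrying the interval's reads (top) and % of the interval's ends with a read (bottom) for each library, by viewpoint and genotype, with the mean as a bar. The S2 mutant has 14.8 to 27.8 effective ends, below all other libraries at each viewpoint.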

How the data were processed

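There is 1 table for each of the 30 libraries, with a row for every DpnII fragment end on chromosome 9. Per the file headers, the authors deposited whole read counts per fragment end, with no normalization, and 2 columns of scaled and smoothed signal, which the authors made from those counts and which were not used here. Per the labels' protocols, chromatin was fixed in 2% formaldehyde, cut with DpnII and, after ligation, with NlaIII or CviQI, and 200 ng of template went through 16 cycles of a first PCR before single reads of 150 bp. Per the submitters' processing notes the build was hg19 and deepTools was among the tools, and no source used here names the aligner or the counter. Reads without molecular identifiers are not independent ligation events, so depth overstates precision.

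Groups came from the sample titles. Viewpoint positions were those given with the region (139443268 for the promoter, 139385872 for S2 and 139523746 for S4). Ends within 5 kb of the viewpoint were left out of all totals. Reads were summed in 80-kb tiles and 10-kb bins laid on the interval's borders, and features with a mean under 10 reads were dropped, which left 14 tiles and 96 bins per viewpoint. edgeR 4.0.16 (R 4.3.3) fitted all 10 libraries of a viewpoint together with the near-cis total as the library size, and its two-sided quasi-likelihood F test was adjusted by Benjamini-Hochberg over the features of a contrast, at 0.05. Values per library were compared by exact permutation. The fit was checked on simulated counts and the permutation test on simulated normal values. Alternatives were chromosome 9, TMM and centromeric-side library sizes, DESeq2 1.42.0, non-blind ends, ends counted in place of reads, capped ends, the leading end removed, other masks, windows and bins, no filter, mutants that keep the site in place of WT, a replicate block and each library left out. Bins named are the WT bin with the highest mean at each viewpoint and the bin with the largest called change in each direction per mutant, with both mutant libraries beyond both WT libraries; ends named are leading ends of WT and of each mutant. The members, the lists and these rules were chosen with earlier results of these data known.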

Additional observations from a re-analysis of the deposited data

Results flagged for a closer look

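The S4 by S5 interaction in the interval's share is the double mutant's change beyond the sum of the single mutants' changes. In log2 units it was 0.35 for the promoter viewpoint, -0.31 for S2 and -0.14 for S4. It was flagged because it was called at each viewpoint (edgeR, values and adjusted p given above). At the promoter it was -0.01 on the chromosome 9 scale, and at S4 its call was lost on non-blind ends (-0.044). WT libraries, which stood apart from all mutant ones, enter it, and their part in it was not tested.

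Both libraries of the S2 mutant moved the interval's near-cis share down at the promoter and up at S2 and S4, relative to WT. The difference of the log2 changes was 0.58 for S2 minus promoter and 0.73 for S4 minus promoter. In the S4 mutant the same opposite moves gave 0.71 for S2 minus promoter and 0.64 for S4 minus promoter. None of these 4 differences between viewpoints was tested. The viewpoints have their own lists of fragment ends and their own near-cis windows.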

How the results depend on the processing

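The log2 change of the interval's reads kept its direction and its call when a window of 1 Mb, a mask of 20 kb, capped ends, no filter or the interval without its leading end was used. With chromosome 9 reads as the library size its sign turned at the promoter for the interaction (-0.012), at S2 for the S5 mutant (0.16) and the S4-S5 mutant (0.084), at S4 for the S5 mutant (0.058) and the S4-S5 mutant (0.077). With TMM factors its sign turned at S2 for the S5 mutant (0.16) and the S4-S5 mutant (0.13). With DESeq2 and its size factors its sign turned at the promoter for the interaction (-0.0029), at S2 for the S5 mutant (0.19) and the S4-S5 mutant (0.16). The call was lost at the promoter for the S5-mutated lines (-0.0097), at S4 for the S4-S5 mutant (-0.015). With centromeric-side reads as the library size its sign turned at S2 for the S2 mutant (-0.13), the S5 mutant (0.17), the S4-S5 mutant (0.19) and the S5-mutated lines (0.16). The call was lost at the promoter for the S5-mutated lines (-0.021). With non-blind ends only its sign turned at S2 for the S2 mutant (-0.075), at S4 for the S4 mutant (-0.027). The call was lost at S4 for the interaction (-0.044). With mutants that keep the site as the reference its sign turned at the promoter for the S2 mutant (0.099) and the S4 mutant (0.089). With a 250-kb window the call was lost at S2 for the S2 mutant (0.023). With ends counted in place of reads its sign turned at the promoter for the S4 mutant (0.11), the S4-S5 mutant (0.061) and the interaction (-0.047), at S2 for the S5 mutant (0.084) and the S4-S5 mutant (0.056), at S4 for the S5 mutant (0.11), the S4-S5 mutant (0.15) and the S5-mutated lines (0.031). The call was lost at the promoter for the S2 mutant (-0.029), the S5 mutant (-0.00023) and the S5-mutated lines (-0.0091), at S2 for the S2 mutant (0.12), the S4 mutant (0.042), the interaction (-0.069) and the S5-mutated lines (-0.0093), at S4 for the S2 mutant (0.094), the S4 mutant (0.10) and the interaction (-0.058). The cause of these changes was not tested.

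Leaving out each library in turn changed no call of the permutation tests or of the interval's tile fits. The log2 changes against WT stayed between -0.71 and -0.44 at the promoter, -0.25 and 0.27 at S2, and -0.24 and 0.26 at S4. The percent of interval bins called did move in some contrasts. It was 62.5 to 75.0% for the S4 mutant at S2, and 50.0 to 62.5% for the S5 mutant at S4. At the promoter it was 87.5 to 100.0% for the S2 mutant and 75.0 to 87.5% for the S5 mutant. The range was 87.5 to 100.0% both for the S5 mutant at S2 and for the S4 mutant at S4. The call of bin 7 of the S5 mutant at the promoter was lost without replicate 1 of the S5 mutant or replicate 2 of WT (0.069 to 0.12 over the libraries left out). Without the S2 mutant the permutation of the promoter's ratio to the neighbour gave 0.0571. The labels number the libraries 1 and 2 in each genotype. Same-numbered libraries deviated together in some pairs of genotypes and not in others (correlations of -0.24 to 0.46, with 4, 5 and 4 of 10 over 0.1 at the promoter, S2 and S4). A replicate block left every call of the interval's tile fits in place (-0.48, -0.45, -0.60 and -0.69 at the promoter for the 4 mutants). Counted as the percent of interval bins called, the S5 mutant at S4 stood at 50.0% as reported, at 87.5% with capped ends, DESeq2 and a 250-kb window, at 93.8% with 5-kb bins and at 100.0% with chromosome 9 reads, TMM factors and the mutant reference. With DESeq2 the S4 mutant at the promoter had 37.5%, and with counted ends all 15 such percentages were 0 (0 at an unadjusted p under 0.05). The fit on counted ends called no bin of the whole window in any contrast, so the calls lost under it say nothing about stability.

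Among the named bins, with chromosome 9 reads as the library size the sign turned at the promoter for bin 8 in the S4 mutant (0.023) and bin 8 in the S4-S5 mutant (0.098), at S2 for bin 6 in the S4 mutant (0.095), at S4 for bin 3 in the S4 mutant (0.044). With TMM factors the sign turned at the promoter for bin 8 in the S4 mutant (0.011), bin 8 in the S5 mutant (0.0036) and bin 8 in the S4-S5 mutant (0.16), at S2 for bin 6 in the S4 mutant (0.10) and bin 7 in the S4-S5 mutant (0.15), at S4 for bin 3 in the S2 mutant (0.22) and bin 3 in the S4 mutant (0.10). With DESeq2 and its size factors the sign turned at the promoter for bin 8 in the S4 mutant (0.18), bin 8 in the S5 mutant (0.16) and bin 8 in the S4-S5 mutant (0.30), at S2 for bin 6 in the S4 mutant (0.20) and bin 7 in the S4-S5 mutant (0.11), at S4 for bin 3 in the S2 mutant (0.58) and bin 3 in the S4 mutant (0.13). With ends counted in place of reads the sign turned at the promoter for bin 8 in the S4 mutant (0.19), bin 5 in the S4 mutant (0.0095), bin 8 in the S5 mutant (0.20), bin 8 in the S4-S5 mutant (0.092) and bin 4 in the S4-S5 mutant (0.068), at S2 for bin 6 in the S4 mutant (0.14), bin 7 in the S5 mutant (0.28) and bin 7 in the S4-S5 mutant (0.25), at S4 for bin 3 in the S2 mutant (0.12), bin 1 in the S2 mutant (-0.36), bin 3 in the S4 mutant (0.22), bin 3 in the S5 mutant (0.23) and bin 3 in the S4-S5 mutant (0.23). With mutants that keep the site as the reference the sign turned at the promoter for bin 5 in the S4 mutant (0.30) and bin 4 in the S4-S5 mutant (0.13), at S2 for bin 8 in the S4-S5 mutant (-0.35) and bin 4 in the S4-S5 mutant (4.78), at S4 for bin 3 in the S2 mutant (0.13), bin 3 in the S4 mutant (0.33) and bin 2 in the S4 mutant (0.30). For the S4-S5 mutant this reference is the S2 mutant alone. Bin 4 at S2 was nearly empty in the S2 mutant, at 0.0233 and 0.0246% against 1.40 and 1.38% in WT. The value of 4.78 thus restates the S2 mutant's fall and says nothing about the S4-S5 mutant's change from WT. With non-blind ends only the sign turned at the promoter for bin 7 in the S5 mutant (-0.069). With a 250-kb window the sign turned at the promoter for bin 7 in the S5 mutant (-0.0088). With centromeric-side reads as the library size the sign turned at the promoter for bin 8 in the S4-S5 mutant (0.043), at S2 for bin 7 in the S2 mutant (-0.070) and bin 7 in the S4-S5 mutant (0.024). With a 20-kb mask the value at S2 for bin 8 in the S4-S5 mutant was -0.16, but that mask removes most of this bin, so the sign cannot be compared. Depth limits the promoter viewpoint most, where the S2 mutant had 3912 and 4045 reads in the interval.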
